A study of Mus musculus with 5 samples.

Results

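The constitutive proteasome genes are those whose mouse symbols begin Psma, Psmb, Psmc, Psmd, Psme, Psmf or Psmg and end in a number, without the immunoproteasome genes Psmb8, Psmb9 and Psmb10. The deposited table listed 45 of them among 34240 features. They comprised 8 alpha and 8 beta genes of the core, 6 cap ATPases, 14 other cap genes, 5 activators or inhibitors and 4 assembly chaperones of the core. Levels are RPKM, read counts scaled to exon length and to the mapped reads of a library, a unit inferred from the values. The 2 AML libraries held cells of an acute myeloid leukaemia induced by CNTRL-FGFR1, a fusion of a centrosomal protein with a receptor tyrosine kinase. Sorting of bone marrow and spleen had selected Mac+Gr1+B220+ cells. The 3 normal libraries held Gr1+Mac1+ myeloid cells from bone marrow. All mice were BALB/c and aged 10 to 12 months. Spleen and B220 belonged to the AML group alone, so tissue, sort and disease cannot be told apart. Whether each library stands for its own animal is not labelled, so a p-value reflects the spread among these samples alone, which may be technical.

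The proteasome degrades proteins that carry ubiquitin chains. Its core is a barrel of stacked rings, with alpha rings as gates and beta rings that hold the proteolytic sites, and a cap at its end binds, unfolds and feeds in substrates. ATPases form the cap's motor, and its other subunits bind ubiquitin, remove it and hold the cap together. Dedicated chaperones build the alpha ring and the base of the cap and then leave, while alternative activators open the core without the cap. Cells of the immune system can exchange the catalytic beta subunits for those of the immunoproteasome, which favours peptides for display on MHC class I.

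In AML cells 3 of the 4 genes for core assembly chaperones rose, Psmg1, Psmg2 and Psmg3, while none of the 14 tested core subunits passed the test in either direction, nor had an unadjusted p under 0.05. Of the cap genes 2 rose, the ATPase Psmc2 and the assembly chaperone Psmd9. These 5 genes were all that passed among 43 members that reached 1 RPKM in at least 2 libraries (limma, Benjamini-Hochberg adjusted p under 0.05 over 10166 tested genes). They made up 11.6% of the tested members, against 19.3% of all tested genes called higher. No member was called lower, against 11.8% of all tested genes, although 2 had an unadjusted p under 0.05 in that direction (Psmd8 and Psmd11). The median log2 fold change was 0.24 over tested members and 0.12 over all tested genes. Leaving out normal library 1 gave medians of 0.13 over members and 0.13 over all genes, and leaving out AML library 1 gave 0.13 over members and -0.02 over all genes. With normal library 3 left out, the medians were 0.31 over members and 0.10 over all genes. In 11 members, or 25.6%, both AML libraries exceeded every normal library, as they did in 34.8% of all tested genes. In 4 members, or 9.3%, both lay below every normal library, against 22.1%.

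**Figure D1:**
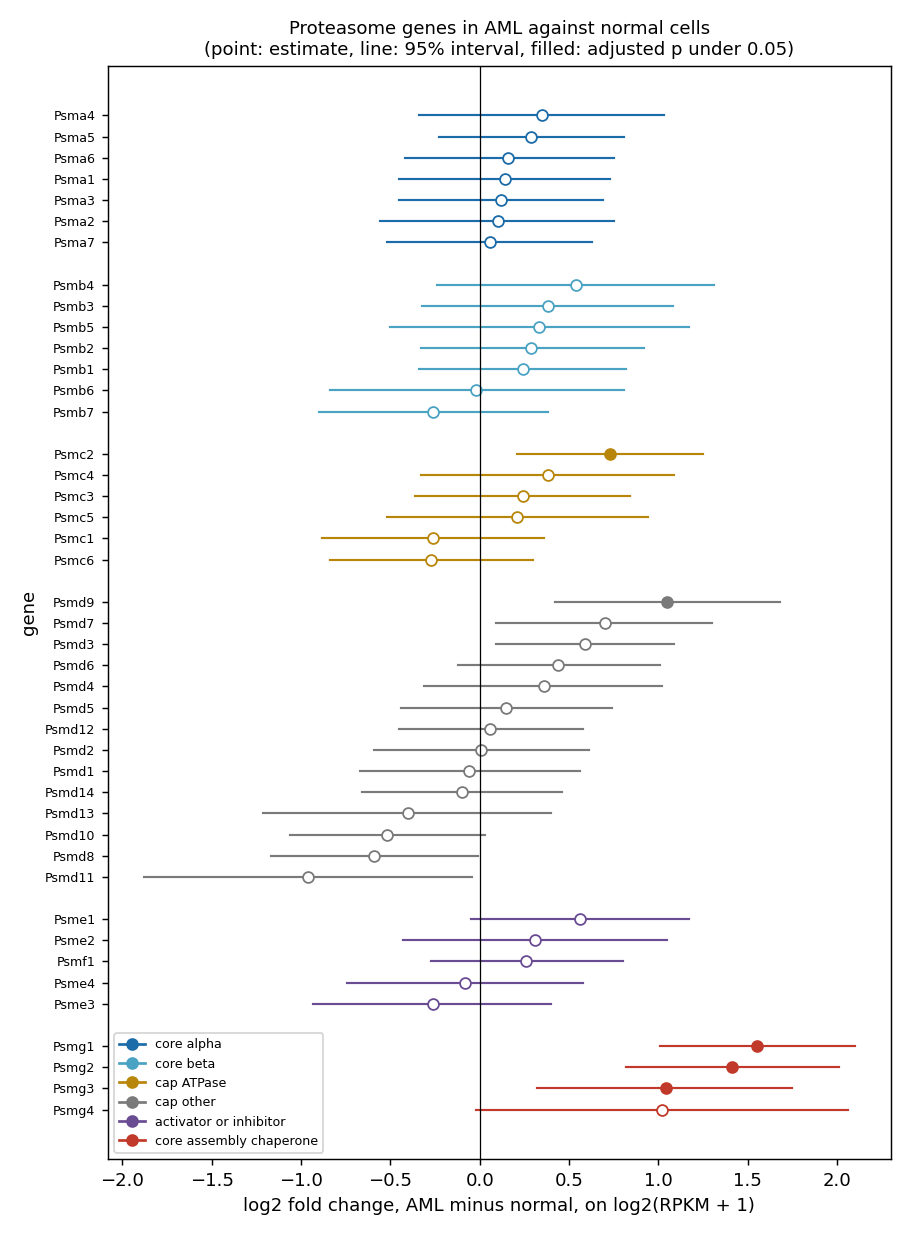
Log2 fold change (AML minus normal, horizontal axis, on log2(RPKM + 1)) of the 43 tested proteasome genes, one per row, grouped and coloured by class; points are limma estimates, lines 95% confidence intervals, and filled points passed the test. Filled points are Psmc2, Psmd9, Psmg1, Psmg2 and Psmg3, all right of 0.

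Sequences upstream of the core assembly chaperones are shown because all 4 of these genes had estimates above 0, with Psmd9, the cap chaperone that rose, and Psmb5, a catalytic subunit that was not called. Each window holds 250 bases before and 50 after the start of the gene in RefSeq (build GRCm38.p6), read 5′ to 3′ on the strand of the gene. Capitals mark the letters TGANNNNGC on either strand, a loose pattern for the antioxidant response element, which the proteasome gene activator Nfe2l1 binds. Its open bases admit more sequences than the core of that element, so a marked stretch need not be such a core.
Psmg1, chr16:95990911-95991210, minus strand: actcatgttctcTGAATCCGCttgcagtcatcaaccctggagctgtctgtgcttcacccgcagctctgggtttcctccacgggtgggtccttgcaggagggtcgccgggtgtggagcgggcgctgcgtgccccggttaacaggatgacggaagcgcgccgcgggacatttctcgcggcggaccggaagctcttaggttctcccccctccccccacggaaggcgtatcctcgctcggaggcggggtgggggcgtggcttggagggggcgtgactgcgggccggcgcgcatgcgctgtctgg
Psmg3, chr5:139826845-139827144, minus strand: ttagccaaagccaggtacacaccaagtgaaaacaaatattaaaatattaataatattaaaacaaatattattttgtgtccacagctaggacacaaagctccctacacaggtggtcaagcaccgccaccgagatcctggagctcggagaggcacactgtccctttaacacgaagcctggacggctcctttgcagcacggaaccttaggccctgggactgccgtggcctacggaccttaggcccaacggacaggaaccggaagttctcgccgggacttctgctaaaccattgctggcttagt
Psmg4, chr13:34162714-34163013, plus strand: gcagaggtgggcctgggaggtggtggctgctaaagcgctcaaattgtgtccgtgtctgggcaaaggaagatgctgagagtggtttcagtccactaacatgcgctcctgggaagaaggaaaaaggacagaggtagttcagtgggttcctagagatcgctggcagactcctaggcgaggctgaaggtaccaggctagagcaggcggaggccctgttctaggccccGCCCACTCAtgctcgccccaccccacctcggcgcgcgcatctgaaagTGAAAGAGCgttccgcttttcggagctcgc
Psmd9, chr5:123227940-123228239, plus strand: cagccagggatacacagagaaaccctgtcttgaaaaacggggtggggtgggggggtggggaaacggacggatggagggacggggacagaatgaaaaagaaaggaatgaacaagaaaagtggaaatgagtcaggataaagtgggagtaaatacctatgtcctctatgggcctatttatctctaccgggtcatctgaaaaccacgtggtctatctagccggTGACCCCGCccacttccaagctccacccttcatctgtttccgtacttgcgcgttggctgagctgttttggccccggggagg
Psmb5, chr14:54617946-54618245, minus strand: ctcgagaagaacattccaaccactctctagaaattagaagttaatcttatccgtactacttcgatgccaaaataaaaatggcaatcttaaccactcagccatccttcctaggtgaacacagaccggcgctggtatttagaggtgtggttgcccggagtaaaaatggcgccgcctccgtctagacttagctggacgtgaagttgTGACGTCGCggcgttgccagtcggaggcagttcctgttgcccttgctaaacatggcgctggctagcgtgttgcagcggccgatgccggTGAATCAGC

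Psmg2 is not shown. The 3 core chaperone windows shown did not share a motif among those searched. Psmg1 held 1 match to TGANNNNGC, Psmg4 held 2 and Psmg3 held none. Psmd9 had 1 and the uncalled Psmb5 had 2 matches to TGANNNNGC. Psmc2, the other cap gene that rose, is not shown. It had 2 matches in its window at chr5:21786497-21786796 and 0 in that at chr5:21785025-21785324. Windows were listed for 37 members, and TGANNNNGC lay in 57.5% of their 40 windows, against 41.3% of all 32851 windows of that length. The site of nuclear respiratory factor 1 lay in 5.0% against 1.0%, namely in Psmg1 and Psma2. The Sp1 site GGGCGG was in 57.5% against 35.7%, the NF-Y site CCAAT in 32.5% against 37.4% and TATAAA in 7.5% against 13.6%. Motifs were counted on both strands and may overlap each other. A match describes letters and is no evidence of binding.

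The assembly chaperones of the core had the highest median log2 fold change of the 6 classes, 1.23 over 4 genes. Psmg1 and Psmg2 encode partners in a dimer that starts the alpha ring. Psmg1 (chromosome 16, 96201540 to 96212567, mm9, ENSMUSG00000022913) stood at 20.09 and 21.16 RPKM in AML libraries 1 and 2, against 5.18, 7.01 and 7.11 RPKM in normal libraries 1 to 3. Both AML libraries were far above the normal range, and the normal libraries lay close together. Its mean was 3.21-fold higher, 20.62 ± 0.757 RPKM (SD, n = 2) against 6.433 ± 1.09 RPKM (SD, n = 3). The log2 fold change on the log2(RPKM + 1) scale, which understates changes of low genes, was 1.55 (SE 0.23, limma, Benjamini-Hochberg adjusted p = 0.0039). Psmg1 stayed called without any one library, and under all 9 other settings.

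Psmg2 was listed at 14.02 and 18.31 RPKM in the AML libraries, against 4.25, 6.09 and 6.02 RPKM in the normal libraries. The groups did not overlap, and the mean was 2.96-fold higher in AML cells. On the log2 scale it rose by 1.41 (SE 0.25, limma, Benjamini-Hochberg adjusted p = 0.0076). The call was lost without AML library 2 (log2 fold change 1.23, limma adjusted p = 0.078).

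Psmg3 and Psmg4 encode the partners of a further dimer that acts on the growing alpha ring. Psmg3 (chromosome 5, 140299548 to 140302797, mm9, ENSMUSG00000029551) had 11.08 and 12.59 RPKM in AML cells, against 3.90, 4.62 and 7.85 RPKM in normal cells. Normal library 3 was the highest of its group yet below both AML libraries. The mean was 2.17-fold higher (log2 fold change 1.04, SE 0.30, limma, Benjamini-Hochberg adjusted p = 0.040). This call was lost without normal library 1 or 2 or either AML library (limma adjusted p from 0.11 to 0.21), under every scaling tried and with no filter (0.057 to 0.077).

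Psmg4 stood at 8.36 and 21.32 RPKM in AML cells, against 4.83, 4.92 and 9.47 RPKM in normal cells. AML library 1 lay below normal library 3, so the groups overlapped, and the AML libraries differed more from each other than for the other 3 chaperones. Its log2 fold change of 1.02 (SE 0.44, 95% interval -0.02 to 2.06) did not pass (limma, Benjamini-Hochberg adjusted p = 0.12). Without normal library 3 it did (log2 fold change 1.30, limma adjusted p = 0.024).

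**Figure D2:**
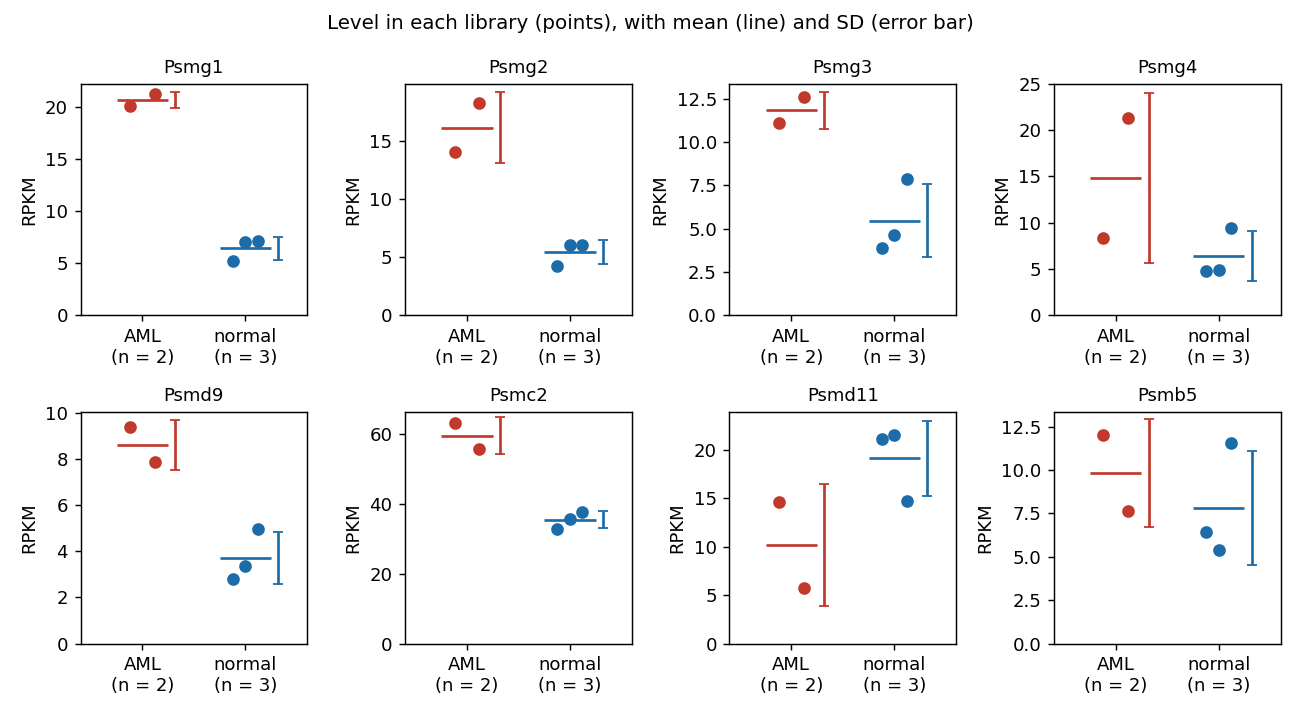
RPKM in each library (points; vertical axis from 0) of 8 proteasome genes in AML (n = 2, left) and normal cells (n = 3, right), with the group mean as a line and the SD as an error bar. Groups are apart for Psmg1, Psmg2, Psmg3, Psmd9 and Psmc2, overlap for Psmg4 and Psmb5, and nearly touch for Psmd11, at 14.6 RPKM in AML library 1 and 14.7 RPKM in normal library 3.

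No tested alpha ring gene was called. The intervals do not show equal levels, and that of Psma4 ran from -0.34 to 1.03 (95% interval of the log2 fold change). All 7 tested members had a log2 fold change above 0, from 0.06 to 0.35, as did 55.9% of all tested genes, and 5 of the 7 turned below 0 when libraries were rescaled to their totals without S100a8 and S100a9. Psma1, the most abundant, had 103.23 and 99.12 RPKM in AML cells, against 75.11, 98.80 and 103.46 RPKM in normal cells. AML values thus lay within the normal range (log2 fold change 0.14, 95% interval -0.45 to 0.73). Psma2 stood at 113.13 and 80.14 RPKM in AML cells, against 72.45, 95.25 and 102.31 RPKM in normal cells, also overlapping. In Psma5 alone of the alpha genes both AML libraries exceeded the normal ones, at 16.56 and 13.11 RPKM against 11.10, 12.26 and 12.29 RPKM, and its log2 fold change of 0.29 (SE 0.22) was not called (limma, Benjamini-Hochberg adjusted p = 0.34). The groups also overlapped in Psma3, Psma4, Psma6 and Psma7. Psma8, an alpha subunit of the testis, was under the filter, listed at 0 in both AML libraries and at 0.1, 0.2 and 0.1 RPKM in the normal libraries.

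Beta ring genes were not called either, and the catalytic subunits had estimates on both sides of 0. Psmb5, which carries the chymotrypsin-like site, stood at 12.02 and 7.64 RPKM in AML cells, against 6.41, 5.42 and 11.54 RPKM in normal cells. The groups overlapped, with normal library 3 close to AML library 1 (log2 fold change 0.33, 95% interval -0.50 to 1.17, limma, Benjamini-Hochberg adjusted p = 0.49). Psmb6, with the caspase-like site, had 57.4 and 38.7 RPKM in AML cells, against 35.5, 43.6 and 69.9 RPKM in normal cells (log2 fold change -0.02, 95% interval -0.84 to 0.81). Psmb7, with the trypsin-like site, had 58.3 and 38.5 RPKM in AML cells, against 49.9, 64.8 and 57.3 RPKM in normal cells (log2 fold change -0.26, 95% interval -0.90 to 0.38). The intervals are wide enough that they do not show equal levels.

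Of the non-catalytic beta genes Psmb1 was the most abundant, with 96.16 and 90.31 RPKM in AML cells, against 65.38, 84.59 and 89.08 RPKM in normal cells. The AML libraries lay just above the normal range (log2 fold change 0.24, SE 0.25, limma, Benjamini-Hochberg adjusted p = 0.49). Psmb4 had the highest beta estimate, 0.54 (SE 0.33, limma adjusted p = 0.25), at 75.01 and 69.48 RPKM in AML cells, against 36.44, 45.23 and 73.20 RPKM in normal cells. Normal library 3 matched the AML libraries here, and without it Psmb4 was called (log2 fold change 0.81, limma adjusted p = 0.023). Psmb2 and Psmb3 gave log2 fold changes of 0.29 and 0.38 with overlapping groups. Psmb11, the beta subunit of thymic cortical epithelium, was under the filter, at 0 and 0.02 RPKM in AML cells and at 0 in all normal libraries.

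Levels within the core were uneven although its subunits are present in equal number in the particle. Per exon length, Psmb5, Psma3 and Psma5 lay below every other tested core gene in all 5 libraries. That order depends on the exon lengths behind the deposited values, which the sources used here do not give. Psma3 had 11.08 and 15.53 RPKM in AML cells, against 10.93, 13.59 and 11.54 RPKM in normal cells, while Psma4, the next alpha gene upward, had 63.16 and 68.01 RPKM against 39.09, 50.78 and 68.24 RPKM. The low genes were low in both groups alike. The table also listed 6 pseudogenes under Psm symbols, all at 0 in every library, and the sources used here do not give how reads shared with such copies were treated. Psma5 and Psmb5 share 60 and 109 exonic bases with other annotated genes (1700010K24Rik and the microRNA gene Mir686). Psma4 and Psmb7, which were not low, share 114 bases with AY074887 and 6 with Nek6. The overlap of Psmb5 is on the same strand, and those of Psma5, Psma4 and Psmb7 are on the opposite strand. The part of such overlaps in these levels was not tested.

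**Figure D3:**
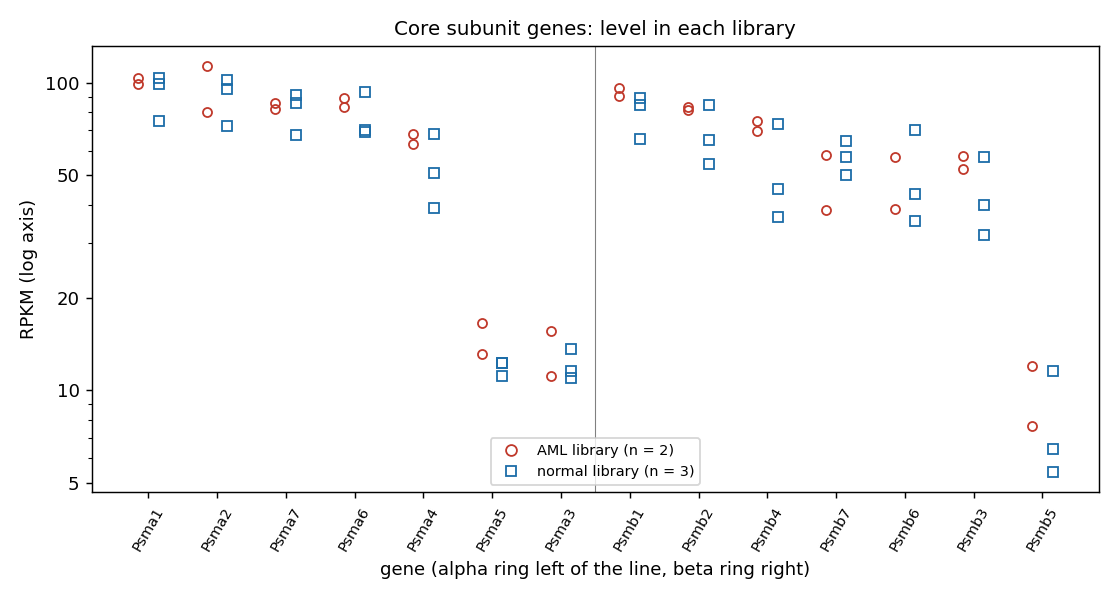
RPKM (vertical log axis) of the 14 tested core genes in each AML library (circles) and normal library (squares), alpha genes left of the line and beta genes right, each ring in order of mean level. Psma5, Psma3 and Psmb5 lie below the rest in every library, and circles and squares overlap for 12 of the 14 genes.

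Among the cap ATPases, which unfold substrates, Psmc2 rose and the other 5 were not called. Psmc2 (chromosome 5, 21291101 to 21309605, mm9, ENSMUSG00000028932) stood at 63.05 and 55.57 RPKM in AML cells, against 32.72, 35.70 and 37.55 RPKM in normal cells. The normal libraries were close together and both AML libraries were well above them, a 1.68-fold difference of means (log2 fold change 0.73, SE 0.22, limma, Benjamini-Hochberg adjusted p = 0.044). The call was lost without normal library 1 or 2 or either AML library (limma adjusted p from 0.14 to 0.17), under every scaling tried and with no filter (0.061 to 0.14). Psmc3, the most abundant ATPase over all libraries, had 70.42 and 52.09 RPKM in AML cells, against 44.64, 51.90 and 58.08 RPKM in normal cells, and the groups overlapped. Groups overlapped too in Psmc1, Psmc4 and Psmc5, whose log2 fold changes were -0.26, 0.38 and 0.21. Psmc6 was the 1 ATPase with both AML libraries below the normal ones, at 34.6 and 35.7 RPKM against 37.7, 51.4 and 39.8 RPKM (log2 fold change -0.27, SE 0.24, limma adjusted p = 0.41).

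The other cap genes spread widest, from a log2 fold change of -0.96 to 1.05 with a median of 0.04, and Psmd9 was the 1 gene called. Psmd9 (chromosome 5, 123678199 to 123700140, mm9, ENSMUSG00000029440), Psmd10 and Psmd5 encode chaperones of the cap's base that are absent from the finished particle. Psmd9 had 9.37 and 7.85 RPKM in AML cells, against 2.78, 3.36 and 4.96 RPKM in normal cells. Both AML libraries exceeded the normal range, and the mean was 2.33-fold higher (log2 fold change 1.05, SE 0.27, limma, Benjamini-Hochberg adjusted p = 0.025). The call was lost without normal library 1 or 2 or either AML library (limma adjusted p from 0.085 to 0.12), with totals taken without S100a8 and S100a9 (0.055) and with no filter on low values (0.050).

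The other chaperones of the base did not follow Psmd9. Psmd10, also known as gankyrin, stood at 13.9 and 11.3 RPKM in AML cells, against 15.8, 19.1 and 20.5 RPKM in normal cells, with both AML libraries lower (log2 fold change -0.52, SE 0.23, limma, Benjamini-Hochberg adjusted p = 0.13). Psmd5 had 20.00 and 16.66 RPKM in AML cells, against 15.79, 20.32 and 13.58 RPKM in normal cells, and the groups overlapped.

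Stable subunits of the cap lay on both sides of 0. Psmd11, a lid subunit that helps to fasten the cap to the core, had the lowest estimate of all members, -0.96 (SE 0.39, limma, Benjamini-Hochberg adjusted p = 0.10). It stood at 14.6 and 5.7 RPKM in AML cells, against 21.1, 21.6 and 14.7 RPKM in normal cells. AML library 2 was much the lowest, and without AML library 1 or normal library 3 the gene was called lower (log2 fold change -1.57 and -1.13, limma adjusted p = 0.043 and 0.037). Psmd8, also of the lid, had 46.6 and 34.0 RPKM in AML cells, against 56.8, 66.3 and 58.5 RPKM in normal cells, and was not called (log2 fold change -0.59, SE 0.24, limma adjusted p = 0.11) except under median-ratio scaling (-0.72, limma adjusted p = 0.048).

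Psmd7, the lid partner of the deubiquitinase subunit Psmd14, stood at 43.67 and 33.11 RPKM in AML cells, against 19.53, 22.67 and 27.75 RPKM in normal cells. The groups did not overlap, but its log2 fold change of 0.70 (SE 0.26) missed the threshold (limma, Benjamini-Hochberg adjusted p = 0.079). Psmd3, a lid subunit at 29.60 and 28.55 RPKM in AML cells against 19.11, 17.60 and 20.46 RPKM in normal cells, gave 0.59 (SE 0.21, limma adjusted p = 0.074). Both were called without normal library 3 (limma adjusted p = 0.026 for Psmd7 and 0.047 for Psmd3). Psmd14 itself had 36.0 and 27.7 RPKM in AML cells, against 31.1, 38.2 and 33.0 RPKM in normal cells, overlapping. Psmd4, a ubiquitin receptor, was the most abundant cap gene among the members. It had 68.16 and 80.95 RPKM in AML cells, against 47.12, 53.98 and 75.91 RPKM in normal cells, and was not called. Psmd1, Psmd2, Psmd6, Psmd12 and Psmd13 had log2 fold changes from -0.40 to 0.44, and none was called.

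Neither activators nor the inhibitor were called, or had an unadjusted p under 0.05. Psme1, 1 of the paired subunits of an interferon-responsive activator, was the most abundant member of all, at 148.43 and 140.19 RPKM in AML cells, against 84.99, 89.86 and 121.80 RPKM in normal cells. Both AML libraries exceeded the normal ones (log2 fold change 0.56, SE 0.26, limma, Benjamini-Hochberg adjusted p = 0.14), and without normal library 3 the gene was called (0.72, limma adjusted p = 0.033). Its partner Psme2 had 38.77 and 44.22 RPKM in AML cells, against 25.60, 29.54 and 48.37 RPKM in normal cells, and normal library 3 was above both AML libraries. Psme3, of a nuclear activator, stood at 45.2 and 32.8 RPKM in AML cells, against 54.2, 51.0 and 36.2 RPKM in normal cells. Psme4, of an activator linked to histone breakdown, and Psmf1, named as an inhibitor of the core, had log2 fold changes of -0.08 and 0.26.

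Summed over tested genes, the core assembly chaperones made 53.55 and 73.38 RPKM in AML cells, against 18.16, 22.64 and 30.45 RPKM in normal cells. All core subunits together made 904.7 and 836.7 RPKM in AML cells, against 624.8, 798.7 and 902.2 RPKM in normal cells. The chaperone sums did not overlap, whereas normal library 3 had nearly as high a core sum as AML library 1. Catalytic subunits of the immunoproteasome rose in AML cells: Psmb8 was 2.56-fold, Psmb9 2.45-fold and Psmb10 1.96-fold higher (log2 fold changes 1.35, 1.28 and 0.97, limma, Benjamini-Hochberg adjusted p = 0.0078, 0.018 and 0.039). The ratio of Psmb8 to its constitutive counterpart Psmb5 was 9.05 and 14.8 in AML cells, against 5.93, 7.41 and 4.5 in normal cells. Psmb5 was among the low core genes. For Psmb9 to Psmb6 the ratio was 1.24 and 2.5, against 0.821, 0.661 and 0.639. For Psmb10 to Psmb7 it was 0.619 and 0.992, against 0.311, 0.244 and 0.446. Sums of these genes gave 1.69 and 2.92, against 0.901, 0.745 and 0.881. All ratios are descriptions with no test. Calls of Psmb9 and Psmb10 were lost without normal library 1 or 2 or either AML library (limma adjusted p up to 0.19), that of Psmb8 without AML library 2 (0.070), and Psmb10 also missed the threshold under every scaling tried and with no filter.

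**Figure D4:**
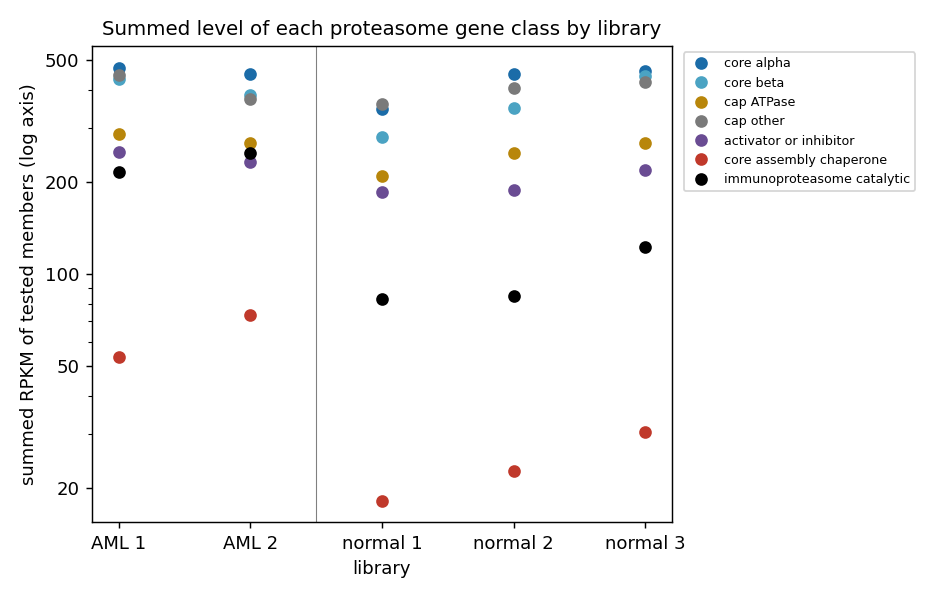
Summed RPKM (vertical log axis) of the tested genes of each class in AML libraries 1 and 2 and normal libraries 1 to 3. Chaperone and immunoproteasome sums of the AML libraries exceed all normal ones, while sums of core and cap classes of normal library 3 reach the range of the AML libraries.

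Genes around the proteasome were counted from 3 further lists. Of 10 tested partners and assembly factors 3 rose and none fell, where 19.3% of all tested genes were called higher and 11.8% lower. Fbxo7, a partner of the inhibitor Psmf1, had 17.83 and 19.27 RPKM in AML cells, against 6.84, 6.86 and 6.49 RPKM in normal cells (log2 fold change 1.34, SE 0.21, limma, Benjamini-Hochberg adjusted p = 0.0044). Uchl5 and Usp14, deubiquitinases that dock on the cap, gave 0.73 and 0.70 (limma adjusted p = 0.048 and 0.047). The call of Fbxo7 was lost without AML library 2 (limma adjusted p = 0.053). Those of Uchl5 and Usp14 were lost under every scaling tried, with no filter, and without normal library 1 or 2 or either AML library (up to 0.20), and that of Usp14 also without normal library 3 (0.052). Pomp, the maturation factor of the beta ring, had 107.78 and 153.06 RPKM in AML cells, against 49.45, 63.85 and 107.08 RPKM in normal cells, and was not called (limma adjusted p = 0.12).

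Among 7 tested genes around Nfe2l1, the transcription factor that raises proteasome genes when degradation fails, 1 fell and none rose, against 11.8% of all tested genes called lower and 19.3% higher. Ddi2, the protease that activates that factor, had 5.8 and 3.5 RPKM in AML cells, against 12.2, 8.4 and 11.6 RPKM in normal cells (log2 fold change -1.07, SE 0.28, limma, Benjamini-Hochberg adjusted p = 0.029). Its call was lost without normal library 1 or 2 or AML library 2 (limma adjusted p up to 0.20) and with no filter (0.058). Nfe2l1 itself stood at 12.0 and 6.3 RPKM in AML cells, against 20.8, 15.6 and 12.2 RPKM in normal cells, and was not called (limma adjusted p = 0.12).

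Among 10 shuttle factors and components of the unfoldase Vcp, Ubqln4 alone was called, where 19.3% of all tested genes were called higher and 11.8% lower. It stood at 12.93 and 15.41 RPKM in AML cells, against 6.46, 5.40 and 5.61 RPKM in normal cells (log2 fold change 1.15, limma adjusted p = 0.0094). This call was lost without normal library 2 or AML library 2 (limma adjusted p = 0.051 and 0.085).

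Facts of the libraries touch these results. Over all tested genes 1959 were called higher and 1196 lower in AML cells, but 1498 and 1504 under median-ratio scaling and 1267 and 1363 with totals taken without S100a8 and S100a9, genes that made up 20.8% to 37.0% of each RPKM total. That last scaling moved the median log2 fold change of all tested genes to -0.10 and that of the members to -0.02, and Psmg1 and Psmg2 alone stayed called among members. Normal library 3 stood apart: 28 of 43 tested members were higher there than in normal libraries 1 and 2 (median log2 difference 0.26, against -0.06 over all tested genes). In 28 tested members normal library 3 was at or above the lower of the AML libraries. Neither count was made over all tested genes, so the counts alone do not set the members apart. Members called without normal library 3 numbered 10 higher and 1 lower, or 23.3% and 2.33%, against 27.3% and 21.2% of the 10110 genes tested there. Summed levels of 6 red cell genes also set it apart, at 116 and 127 RPKM in AML libraries and 1530, 974 and 101 RPKM in normal libraries 1 to 3. The sum of 7 monocyte and macrophage genes was 36.1 and 43.9 RPKM in AML cells, against 776, 568 and 482 RPKM in normal cells, and all 7 were called lower. The sum of 7 T and NK cell genes was 617 and 573 RPKM against 55.5, 62.8 and 56.4 RPKM, with 4 called higher and 1 lower, and Cd2 and Lck under 1 RPKM in every library. Of 6 neutrophil genes Elane (62.2-fold) and Mpo (17.8-fold), granule proteins of early granulocytes, were called higher in AML cells (limma adjusted p = 0.00023 and 0.00061). Ly6g, the antigen of mature neutrophils recognised with Gr1, and Itgam, which encodes Mac1, were called lower (ratios of means 0.432 and 0.429, limma adjusted p = 0.02 for each), and S100a8 and S100a9 were not called. The 6 B cell genes summed to no more than 16.9 RPKM although B220 was a sorting marker; Ebf1 was listed at 0 in AML library 1. The part of these cell types in the proteasome values was not tested, and in bulk samples fewer cells of a type and less RNA per cell cannot be told apart.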

How the data were processed

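RNA of sorted cells was sequenced after Illumina TruSeq preparation, per the labels' protocols. The authors deposited 1 table of values per feature and library, taken here as RPKM. Multiplying by exon length in kb, available for 72.7% of features, brought every library to a sum between 1059377 and 1124787. Those lengths may differ from the ones behind the deposited values, and neither labels nor header name the unit. The submitters' processing notes name mm9; how reads were aligned, counted and filtered is not given in the sources. Low values of genes with a single exon, 37 to 128 per library, were read at many trial depths. At the best depth of each library, 56.8% to 83.6% of values gave whole reads within rounding. The share by chance at that depth was 26.7% to 34.3%, which makes no allowance for picking the best. Depth is therefore unknown and no counting interval is given.

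Genes reaching 1 RPKM in 2 or more libraries were compared as log2(RPKM + 1) in limma 3.58.1 (R 4.3.3, variance trend, robust, two-sided, threshold 0.05). The code was tested on simulated data with planted changes larger than any member's estimate, so that test does not cover changes of their size. Groups came from source labels. All members were named; values per library go to the largest called changes, the most abundant gene of each class, the catalytic subunits and members under the filter. Other members, pathway genes and overlaps were picked after their values were seen. Members and lists were chosen with earlier results of these data known, and no list was tested. Of 45 members 44 had a unique mm9 location in GENCODE M1. Paaf1 is not analysed here, and 1 further pathway list is not reported here. Alternatives were 4 scalings, 2 filters, a pseudocount of 0.1, no variance trend, rounding to 1 decimal and leaving out each library. Of the tested members 13 were deposited with 1 decimal, of which 12 had a log2 fold change below 0, and 30 with 2 decimals, all above 0. Over all tested genes 11.9% of 4749 with 1 decimal and 94.5% of 5417 with 2 were above 0, so decimals follow direction.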

Additional observations from a re-analysis of the deposited data

How the results depend on the processing

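Of 643 pairs of a member or immunoproteasome gene with an alternative, 559 kept their side of the threshold without turning in sign. Estimates that rounded to 0 were counted as not turned. Of the other pairs 39 lost a call, 8 gained one and 37 turned in sign, all of them members not called. The cause was not tested. Members called higher numbered 3 under upper quartile scaling, 3 under median-ratio scaling, 3 under quantile normalization, 2 with totals without S100a8 and S100a9 and 2 with no filter; they ranged from 1 to 10 when leaving out 1 library. Members called lower numbered 1 under median-ratio scaling (Psmd8) and from 0 to 1 leaving out 1 library. The members' median was 0.10, 0.11 and -0.02 under median-ratio scaling, quantile normalization and totals without S100a8 and S100a9. Over all tested genes 1267 were called higher with totals without S100a8 and S100a9. Leaving out 1 library gave 326 (without AML library 2) to 2757 (without normal library 3) higher and 348 to 2142 lower genes. With totals without S100a8 and S100a9, log2 fold changes turned to -0.11 for Psma1, -0.16 for Psma2, -0.11 for Psma3, -0.09 for Psma6, -0.20 for Psma7, -0.02 for Psmb1, -0.01 for Psmc3, -0.04 for Psmc5, -0.18 for Psmd12, -0.24 for Psmd2 and -0.09 for Psmd5. Under quantile normalization they were -0.02 for Psma1, -0.04 for Psma2, -0.10 for Psma7, -0.04 for Psmd12 and -0.08 for Psmd2. Under median-ratio scaling they were -0.04 for Psma2, -0.08 for Psma7, -0.07 for Psmd12 and -0.12 for Psmd2, and under upper quartile scaling -0.05 for Psma7, -0.03 for Psmd12 and -0.09 for Psmd2. Leaving out 1 library ranged from -0.15 to 0.34 for Psma2, -0.10 to 0.35 for Psma3, -0.07 to 0.14 for Psma7, -0.29 to 0.26 for Psmb6, -0.55 to 0.03 for Psmb7, -0.53 to 0.01 for Psmc1, -0.37 to 0.25 for Psmd1, -0.89 to 0.09 for Psmd13, -0.29 to 0.08 for Psmd14, -0.28 to 0.30 for Psmd2 and -0.30 to 0.08 for Psme4. Without 1 AML library the lone one is assumed to vary like the normal libraries. No paired analysis was possible because no label used here links an AML library to a normal library. With 2 against 3 libraries, 22 of 38 uncalled members had a 95% interval within -1 and 1, so a change of 1 on the log2 scale is not excluded for the others.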
